A study of Arabidopsis thaliana with 16 samples.

Results

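The 10 genes described here make and read out jasmonate, a hormone that plants derive from membrane fatty acids, and were taken from the expression matrix by their gene identifiers. They are 7 genes of synthesis (LOX2, AT3G45140; LOX3, AT1G17420; LOX4, AT1G72520; AOS, AT5G42650; AOC1, AT3G25760; AOC2, AT3G25770; OPR3, AT2G06050), 2 genes of JAZ repressors (JAZ1, AT1G19180; JAZ10, AT5G13220) and 1 gene of a transcription factor (MYC2, AT1G32640). All 10 have a row among the 33560 genes of the matrix, and 6 of them (AOS, AOC2, OPR3, JAZ1, JAZ10 and MYC2) passed the filter on low values, which asked for 1 FPKM or more in no fewer than 4 of the 16 libraries and which 19239 genes passed in all. Levels are in FPKM, fragment numbers divided by transcript length and by library size, so that levels of different genes are compared per length.

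Messenger RNA was measured in roots of Arabidopsis thaliana seedlings 5 days old, all of the Col-0 ecotype. All were stratified for 2 days at 4 °C and grown on plates at 21 °C in long days (16 h light, 8 h dark), with no other stated treatment. The groups are a double mutant that carries mctp3-2 and mctp4-1 (double), the mctp4-1 single mutant (line Salk_089046C), the mctp3-2 single mutant (line GABI_285E06) and wild type (WT), with 4 libraries each. Each mutant is known here by 1 line, so an effect of another change in that line cannot be told apart from that of the allele. MCTP3 and MCTP4 encode proteins of plasmodesmata, the channels that join plant cells, and hold the endoplasmic reticulum close to the plasma membrane there.

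MCTP4 transcript had 2.94 to 3.31 FPKM in double, 2.55 to 5.50 FPKM in mctp4-1, 26.9 to 30.2 FPKM in mctp3-2 and 22.9 to 29.4 FPKM in WT. MCTP3 transcript had 12.95 to 14.6 FPKM in double, 5.53 to 8.03 FPKM in mctp4-1, 12.4 to 16.4 FPKM in mctp3-2 and 6.07 to 6.61 FPKM in WT. MCTP3 was therefore higher, not lower, in every library labelled with mctp3-2, and which parts of the gene its transcript holds cannot be read from gene-level values, so "double" and "mctp3-2" are the libraries labelled so throughout. Of 10 root markers, all 10 passed the filter, and the summed level of 20 photosynthesis genes, markers of green tissue, was 227 to 914 FPKM in double, 309 to 640 FPKM in mctp4-1, 279 to 559 FPKM in mctp3-2 and 383 to 566 FPKM in WT. The labels do not say that libraries of a genotype came from separate plantings, so the spread behind each p-value is that between libraries and may be technical. Per-library read depth is unknown, since the files hold no read counts.

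Jasmonate synthesis starts in plastids, where 13-lipoxygenases (LOX) oxygenate linolenic acid. Allene oxide synthase (AOS) and allene oxide cyclase (AOC) turn the product into 12-oxophytodienoic acid (OPDA), and OPR3 reduces OPDA in peroxisomes before its side chain is shortened. Conjugated to isoleucine, the hormone joins the receptor COI1 to JAZ proteins, which are then degraded and release MYC2 and its relatives; MYC2 in turn activates genes of synthesis and of JAZ proteins, so that JAZ transcripts are widely used as markers of a jasmonate response, in roots as in leaves.

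The windows just before AOS and MYC2 are shown because, once centred within replicate pairs, both genes followed the mean profile of the 6 genes tested, as described further on. Each of the genes is itself a part of that profile. The windows are 250 bases before the annotated gene start, 5′ to 3′ on the gene's strand, from the RefSeq TAIR10.1 genome, and lie at chr5:17099596-17099845 (minus strand) for AOS and chr1:11801408-11801657 (minus strand) for MYC2. Capitals mark a match, on either strand, to the G-box CACGTG, which MYC factors bind, or to its variants AACGTG and CACATG.
AOS: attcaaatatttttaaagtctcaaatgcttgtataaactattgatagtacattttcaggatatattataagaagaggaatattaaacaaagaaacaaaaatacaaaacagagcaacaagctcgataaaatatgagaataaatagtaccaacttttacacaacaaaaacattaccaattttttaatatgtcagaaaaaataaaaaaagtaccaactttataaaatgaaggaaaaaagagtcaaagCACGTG
MYC2: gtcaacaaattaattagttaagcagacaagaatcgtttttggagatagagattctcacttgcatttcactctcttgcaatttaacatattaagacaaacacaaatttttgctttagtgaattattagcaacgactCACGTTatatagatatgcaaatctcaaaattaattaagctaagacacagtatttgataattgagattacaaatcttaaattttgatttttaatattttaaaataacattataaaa
The AOS window ends in a G-box that starts 6 bases before the gene, and the MYC2 window holds CACGTT, which is AACGTG on the other strand. Over the 9 genes other than JAZ1, CACGTG was in 1 window (AOS), AACGTG in 3 (LOX4, AOC1 and MYC2) and CACATG in 3 (LOX2, LOX3 and JAZ10). Of 27443 windows of the same length before protein-coding genes, 6.49% held CACGTG, 7.54% held AACGTG and 11.1% held CACATG. At least 1 of the 3 motifs was in 7 of the 9 windows, all but those of AOC2 and OPR3, and in 22.8% of all windows. These matches describe letters in a short window, and binding was not measured.

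LOX2, a 13-lipoxygenase known from wounded leaves, was listed at 0 in all 16 root libraries. Its gene lies at chr3:16525245-16529352 on the plus strand. All of 8 housekeeping genes were above 0 in every library, the lowest value being 17.0 FPKM. Genes at such levels do not show how a gene near 0 was estimated, and why LOX2 was listed at 0 was not tested.

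LOX3 and LOX4, a pair of closely related 13-lipoxygenases, were close to 0 as well. LOX3 (chr1:5977323-5981521, plus strand) had 0.0620 and 0.151 FPKM in double replicates 2 and 3, 0.0196 FPKM in mctp4-1 replicate 1 and 0.0288 FPKM in WT replicate 3, and was listed at 0 in the other 12 libraries, among them all 4 of mctp3-2. LOX4 (chr1:27308513-27312756, plus strand) had 0.139, 0.200, 0.486 and 0.197 FPKM in double, 0.152, 0.181, 0.448 and 0.145 FPKM in mctp4-1, 0.389, 0.138, 0.0943 and 0.213 FPKM in mctp3-2 and 0.289, 0.0966, 0.261 and 0.0771 FPKM in WT, for replicates 1 to 4. The genotypes overlapped for LOX4, with 1 library standing high in each of double, mctp4-1 and mctp3-2. An exact 2-sided permutation test of 4 against 4 libraries, whose smallest possible p is 0.0286, gave p = 0.514 for LOX4 in double, p = 0.657 in mctp4-1 and p = 0.829 in mctp3-2, each against WT. For LOX3 the exact permutation p came to 0.429 in double, 1 in mctp4-1 and 1 in mctp3-2, each against WT.

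The lipoxygenases that the roots did contain were others of the family. LOX1 averaged 21.3 ± 5.44 FPKM over the 16 libraries, LOX5 averaged 12.03 ± 2.13 FPKM and LOX6 averaged 9.02 ± 1.44 FPKM (SD, n = 16). LOX1 and LOX5 are 9-lipoxygenases, which oxygenate a different carbon and do not lead to jasmonate, and LOX6 is a 13-lipoxygenase. LOX6 was thus the highest of the 13-lipoxygenases: its lowest level, 6.56 FPKM, was above the highest level of LOX4, 0.486 FPKM, while the ranges of LOX4, LOX3 and LOX2 overlapped or touched.

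AOS, a cytochrome P450 that makes the allene oxide and is encoded by a single gene in Arabidopsis, was well above the filter. Its gene has 1 exon at chr5:17097564-17099595 on the minus strand. AOS had 11.6, 11.5, 16.5 and 10.7 FPKM in double, 11.6, 12.97, 16.7 and 16.1 FPKM in mctp4-1, 12.3, 9.93, 14.4 and 12.9 FPKM in mctp3-2 and 14.1, 10.4, 13.4 and 9.29 FPKM in WT. All 4 genotypes overlapped, and replicate 3 was the highest library in double, mctp4-1 and mctp3-2 but not in WT.

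The changes of AOS, as log2(FPKM + 1), were 0.08 ± 0.16 in double, 0.27 ± 0.16 in mctp4-1 and 0.07 ± 0.16 in mctp3-2 against WT (± SE, n = 4 each), with limma adjusted p = 1.00 in each. The 95% intervals of these 3 changes together span folds of 0.826 to 1.53. Within replicates 1 and 2 the change in mctp4-1 against WT was 0.02, and within replicates 3 and 4 it was 0.51.

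AOC1 and AOC2 are neighbours on chromosome 3, at chr3:9403779-9405338 and chr3:9406669-9408071, both on the plus strand, and encode isoforms of the cyclase that sets the stereochemistry of OPDA. Their coding sequences are 90.3% identical (688 of 762 aligned bases), and the longest run shared base for base is 47 bases long, at chr3:9404926-9404972 in AOC1 and chr3:9407660-9407706 in AOC2, shown because a fragment inside it fits either gene.
AOC1 and AOC2: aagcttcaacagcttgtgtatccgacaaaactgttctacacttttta
AOC3, the next gene along, is 82.7% identical to AOC1 with a longest shared run of 73 bases, and 82.4% identical to AOC2 with a run of 50 bases. AOC4, on chromosome 1, shares at most 23 bases in a run with either. AOC3 averaged 63.4 ± 10.8 FPKM and AOC4 averaged 75.1 ± 4.23 FPKM, against 2.57 ± 1.18 FPKM for AOC2 and 0.406 ± 0.244 FPKM for AOC1 (SD, n = 16). How the authors assigned fragments that fit several genes is not given in the sources used here, so the low levels of AOC1 and AOC2 are uncertain beside the high level of AOC3. As listed, AOC1 and AOC2 made up 0.287% and 1.82% of the family's summed mean level, and no library of AOC2, at most 5.39 FPKM, came near the lowest library of AOC3, 47.6 FPKM.

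AOC1 had 0.193, 0.805, 0.454 and 0.339 FPKM in double, 0.367, 0.174, 0.932 and 0.361 FPKM in mctp4-1, 0, 0.0754, 0.515 and 0.594 FPKM in mctp3-2 and 0.511, 0.496, 0.315 and 0.373 FPKM in WT. All genotypes overlapped, and the WT libraries lay inside the range of each mutant. The exact permutation p against WT came to 0.971 in double, 0.971 in mctp4-1 and 0.429 in mctp3-2.

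Of the 6 genes tested, AOC2 had the largest fitted differences between genotypes. It had 2.12, 1.40, 0.860 and 2.08 FPKM in double, 2.32, 4.18, 2.45 and 2.85 FPKM in mctp4-1, 2.83, 2.81, 5.39 and 2.56 FPKM in mctp3-2 and 1.57, 2.19, 1.29 and 4.19 FPKM in WT. All 4 double libraries were below all 4 of mctp4-1 and below all 4 of mctp3-2, while WT overlapped every mutant. Against WT, the log2(FPKM + 1) change came to -0.30 ± 0.26 in double, 0.31 ± 0.26 in mctp4-1 and 0.44 ± 0.26 in mctp3-2 (± SE, n = 4 each), each with limma adjusted p = 1.00.

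The difference of AOC2 between double and mctp3-2 was -0.74 ± 0.26 with an unadjusted limma p of 0.0127, and that between double and mctp4-1 was -0.60 ± 0.26 with an unadjusted limma p of 0.0354. The interaction, the double change less the sum of the changes in the single mutants, was -1.05 ± 0.37 with an unadjusted limma p of 0.0125. None of the 3 was called after adjustment over all 19239 genes (limma adjusted p = 1.00 in each). With the replicate number as a block, the lowest adjusted p of AOC2 in any comparison was 0.498, for double against mctp3-2.

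OPR3, the peroxisomal OPDA reductase (chr2:2359114-2362375, minus strand), had the smallest SD relative to its mean of the 6 genes tested. It had 27.5, 29.2, 28.9 and 25.7 FPKM in double, 24.3, 24.9, 27.7 and 25.2 FPKM in mctp4-1, 27.6, 22.6, 27.1 and 27.1 FPKM in mctp3-2 and 29.0, 28.2, 29.6 and 28.0 FPKM in WT. Every library of mctp4-1 and of mctp3-2 was below every WT library, whereas double overlapped all the other genotypes. The change came to -0.04 ± 0.08 in double, -0.16 ± 0.08 in mctp4-1 and -0.13 ± 0.08 in mctp3-2 (log2, ± SE, n = 4 each), with limma adjusted p = 1.00 in each. The unadjusted limma p was 0.0499 for mctp4-1 against WT and 0.0338 for the interaction, 0.25 ± 0.11. The 95% intervals of the 3 changes against WT span folds of 0.796 to 1.09. The related reductases OPR1, with 386 ± 32.4 FPKM, and OPR2, with 73.1 ± 6.84 FPKM (SD, n = 16), were higher than OPR3 in every library, and in Arabidopsis they are known to act little on the OPDA isomer that leads to jasmonate.

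**Figure D1:**
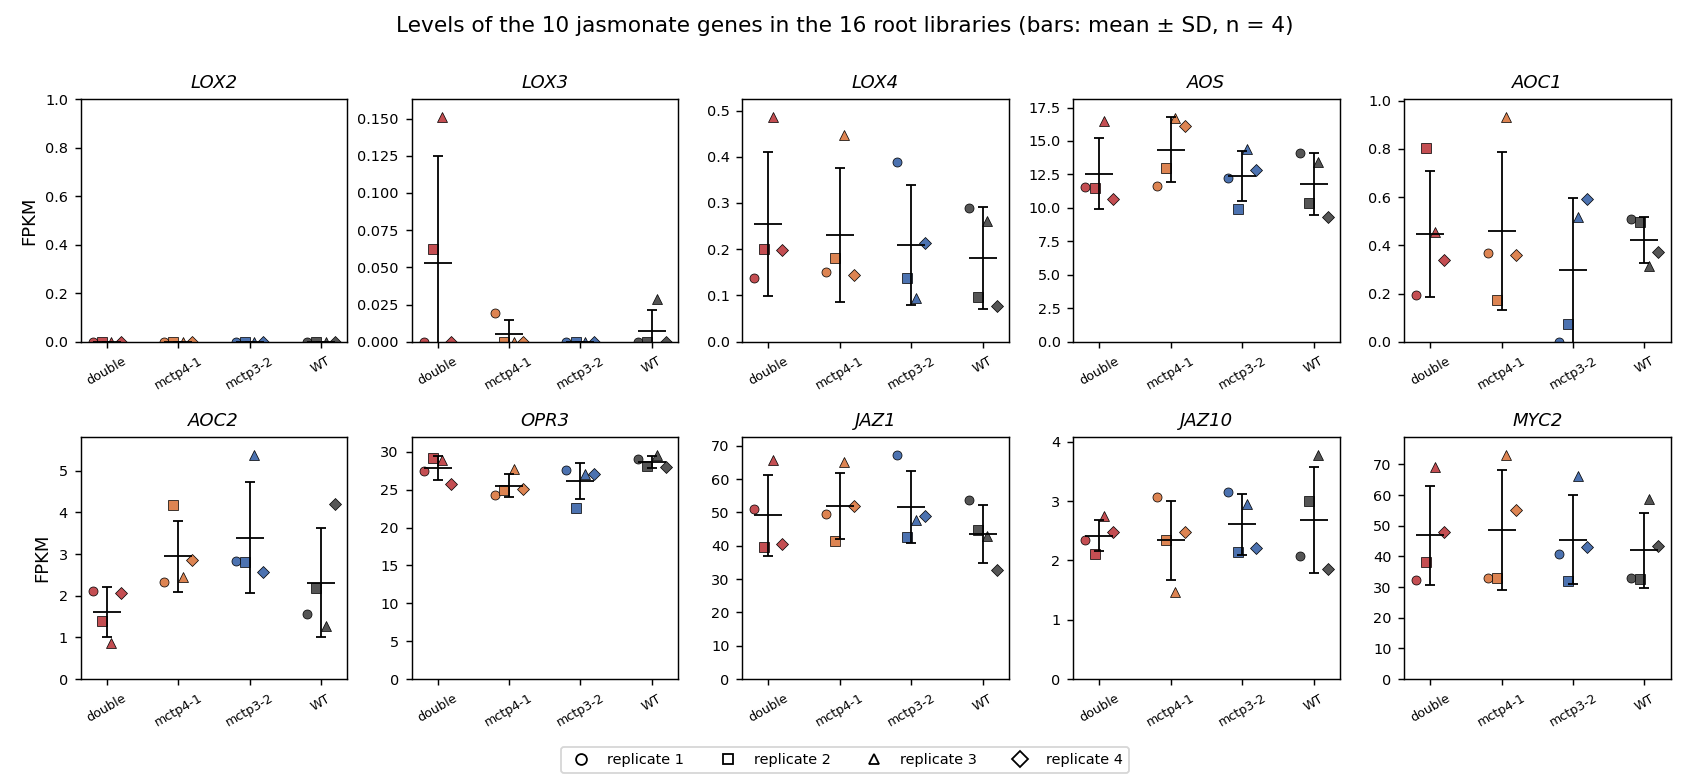
FPKM (y axis, a separate linear scale in each panel) of the 10 jasmonate genes in the libraries of double, mctp4-1, mctp3-2 and WT (x axis). Each point is 1 library with its shape giving the replicate number, horizontal lines are means and vertical bars are SD (n = 4), cut off at 0; LOX2 is at 0 throughout, AOC2 in double lies below both single mutants, OPR3 in the single mutants lies below WT, and replicate 3 tops every genotype for MYC2.

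JAZ1, a repressor that binds MYC2 until jasmonate has it degraded, had the highest mean level of the 10 genes. Its gene lies at chr1:6621777-6623668 on the plus strand. JAZ1 had 51.1, 39.6, 65.6 and 40.4 FPKM in double, 49.6, 41.3, 65.2 and 51.9 FPKM in mctp4-1, 67.4, 42.6, 47.7 and 48.9 FPKM in mctp3-2 and 53.7, 44.7, 43.0 and 32.6 FPKM in WT. The genotypes overlapped, and the highest library was replicate 3 in double and mctp4-1 but replicate 1 in mctp3-2 and WT.

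The change of JAZ1 came to 0.17 ± 0.19 in double, 0.26 ± 0.19 in mctp4-1 and 0.24 ± 0.19 in mctp3-2 against WT on the log2 scale (± SE, n = 4 each), with limma adjusted p = 1.00 in each. The sign differed between replicate pairs: the JAZ1 change in mctp4-1 was -0.11 within replicates 1 and 2 and 0.62 within replicates 3 and 4, and in double it was -0.12 and 0.45. The 95% intervals against WT span folds of 0.847 to 1.58.

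JAZ10, a repressor with splice forms that resist degradation, was lower, at 2.51 ± 0.577 FPKM over the 16 libraries (SD). Its gene at chr5:4218786-4221077 on the plus strand overlaps AT5G02045 on the minus strand by 71 bases, a locus not analysed here. JAZ10 had 2.34, 2.104, 2.75 and 2.48 FPKM in double, 3.07, 2.34, 1.47 and 2.48 FPKM in mctp4-1, 3.15, 2.14, 2.95 and 2.201 FPKM in mctp3-2 and 2.08, 2.999, 3.78 and 1.86 FPKM in WT. WT held both the highest JAZ10 library and a low one, and all genotypes overlapped. The log2 change against WT came to -0.08 ± 0.18 in double, -0.13 ± 0.18 in mctp4-1 and -0.01 ± 0.18 in mctp3-2 (± SE, n = 4 each), with limma adjusted p = 1.00 in each and 95% intervals that span folds of 0.699 to 1.299.

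Among the 12 JAZ genes measured, JAZ12 averaged 68.6 ± 8.23 FPKM and JAZ1 49.1 ± 9.998 FPKM (SD, n = 16), with overlapping ranges, and JAZ1 stayed above JAZ2, the next, in every pair of libraries (26.5 ± 2.07 FPKM). JAZ3, JAZ11 and JAZ4 averaged 23.0, 19.7 and 15.6 FPKM, and JAZ6 and JAZ9 averaged 6.36 and 5.75 FPKM. JAZ10 came ninth in this order, with JAZ7 at 1.51, JAZ5 at 1.19 and JAZ8 at 0.232 FPKM below it, and its range overlapped that of JAZ7. JAZ1 made up 22.3% and JAZ10 1.14% of the family's summed mean level.

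MYC2, the basic helix-loop-helix factor that starts jasmonate transcription in roots and leaves, averaged 45.7 ± 14.4 FPKM (SD, n = 16). Its single-exon gene at chr1:11798119-11801407 on the minus strand overlaps AT1G32630 on the plus strand by 3241 bases. The library kit keeps strand, but whether the counting used it is not given in the sources used here; AT1G32630 had 5.02 to 7.78 FPKM, so MYC2 is uncertain to the extent that fragments of that gene were added to it. MYC2 had 32.3, 38.1, 69.2 and 47.9 FPKM in double, 33.0, 33.0, 73.2 and 55.3 FPKM in mctp4-1, 40.7, 31.9, 66.2 and 43.1 FPKM in mctp3-2 and 32.9, 32.8, 58.6 and 43.4 FPKM in WT. The genotypes overlapped throughout, and within each of them replicate 3 was highest and replicate 4 second.

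The change of MYC2 came to 0.14 ± 0.30 in double, 0.17 ± 0.30 in mctp4-1 and 0.11 ± 0.30 in mctp3-2 against WT on the log2 scale (± SE, n = 4 each), with limma adjusted p = 1.00 in each and 95% intervals that span folds of 0.693 to 1.75. MYC3 and MYC4, factors that share its targets, averaged 18.4 ± 2.71 and 11.2 ± 1.26 FPKM (SD, n = 16), and the 3 factors kept the same order in every pair of libraries.

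**Figure D2:**
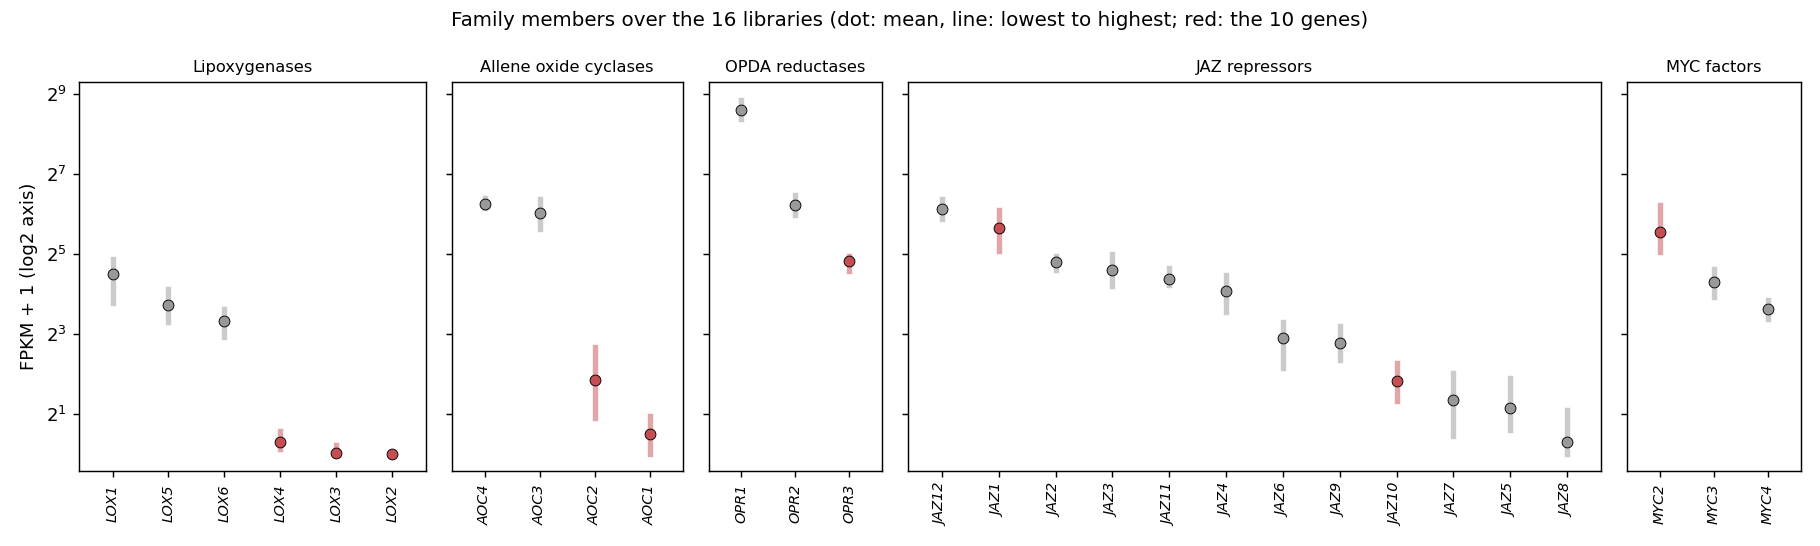
Mean level over the 16 libraries (dots) and the lowest to the highest library (lines) as FPKM + 1 on a log2 axis, for the genes of each family ordered by mean along the x axis, with the 10 jasmonate genes described here in red. LOX2, LOX3 and LOX4 lie far below LOX1, LOX5 and LOX6, AOC1 and AOC2 far below AOC3 and AOC4, while JAZ1 and MYC2 are at or near the top of their families.

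Ordered by mean level over all 16 libraries, JAZ1 and MYC2 came first with overlapping ranges, and OPR3 (27.0 ± 1.98 FPKM), then AOS (12.8 ± 2.31 FPKM), each stood apart from its neighbours. AOC2 and JAZ10 followed at 2.57 and 2.51 FPKM and did not differ beyond their spread. AOC1, LOX4, LOX3 and LOX2 came last, all below 1 FPKM in every library.

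Of the 6 genes tested, 0 were called at a limma adjusted p under 0.05 in any comparison. Over all genes the share called was 0.156% in double against WT, 0.026% in mctp4-1 against WT and 0.0312% in mctp3-2 against WT, so a count of 0 among 6 genes is what that background gives most often and says little by itself. The share called was 0.0624% in double against mctp4-1, 0.0572% in double against mctp3-2 and 0.0364% for the interaction. The 3 comparisons with WT use the same WT libraries and are not independent. At an unadjusted limma p under 0.05, the counts among the 6 genes were 0 in double, 1 in mctp4-1 (OPR3) and 0 in mctp3-2 against WT, 1 in double against mctp4-1 and 1 in double against mctp3-2 (AOC2 in both), and 2 for the interaction (AOC2 and OPR3). The shares over all genes at that threshold were 3.82%, 1.26% and 1.85% for double, mctp4-1 and mctp3-2 against WT, 2.6% and 2.92% for double against mctp4-1 and against mctp3-2, and 1.93% for the interaction. With the replicate number as a block, 0 of the 6 genes were called, where all genes gave 0.541% in double against WT, 0.026% in mctp4-1 against WT, 0.0572% in mctp3-2 against WT, 0.312% in double against mctp4-1, 0.275% in double against mctp3-2 and 0.052% for the interaction.

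Genotypes that did not overlap were counted in the same way. None of the 6 genes separated double from WT, OPR3 separated mctp4-1 from WT and also mctp3-2 from WT, and AOC2 separated double from mctp4-1 and from mctp3-2. The share of all tested genes that did so was 2.13% for double, 1.03% for mctp4-1 and 1.85% for mctp3-2 against WT, and 1.93% and 1.57% for double against mctp4-1 and against mctp3-2. The median log2 change of the 6 genes came to 0.02 in double, 0.21 in mctp4-1 and 0.09 in mctp3-2 against WT, beside 0.03, 0.03 and 0.05 for all genes tested. In these whole-root samples a smaller share of a cell type and less RNA per cell cannot be told apart.

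**Figure D3:**
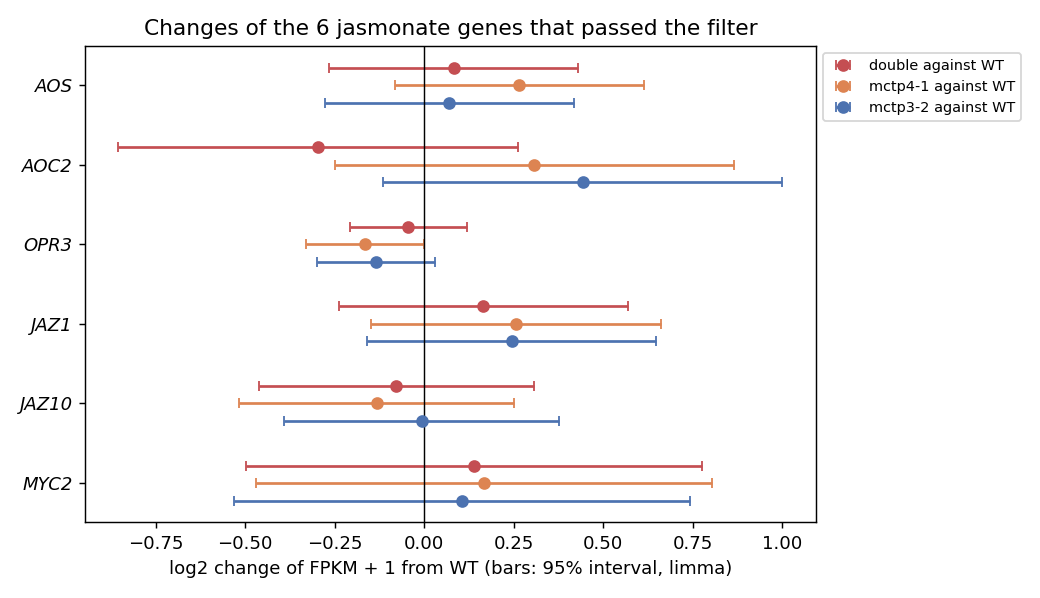
Log2 change of FPKM + 1 from WT (x axis) for the 6 jasmonate genes that passed the filter (y axis), with double, mctp4-1 and mctp3-2 as separate points and 95% limma intervals as bars (n = 4 libraries each). No change was called after adjustment; OPR3 has the narrowest intervals and AOC2 and MYC2 the widest.

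MYC2 differed by replicate pair in every genotype. Replicates 3 and 4 of the 4 genotypes had 43.1 to 73.2 FPKM, and replicates 1 and 2 had 31.9 to 40.7 FPKM. No library of replicates 3 and 4 was as low as any of replicates 1 and 2, and the ratio of their means was 1.66 in double, 1.95 in mctp4-1, 1.50 in mctp3-2 and 1.55 in WT. The log2 difference, replicates 3 and 4 minus 1 and 2, was 0.70 for MYC2, and 1.33% of all tested genes had a larger one in the same direction. Differences of that size in the other direction are not in this share, and 1 such gene among 6 says little by itself. MYC2 was the only gene of the 6 whose replicate pairs did not overlap, and 7.42% of all tested genes separated in that direction and 4.27% in the other. The column names of the matrix carry numbers that skip between replicate 2 and replicate 3, alike in every genotype; what the skip stands for is not stated in the labels, and genotype is balanced over it. Of the 18 changes of the 6 genes against WT, 6 had the other sign within replicates 1 and 2 or within replicates 3 and 4 than over all libraries.

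Other pathway genes also separated by replicate pair, 3 higher and 3 lower of the 47 tested, named here after their values were seen. Of all tested genes 7.42% separated as higher and 4.27% as lower, 11.7% in either direction. The pathway counts are near that background and say little by themselves. FAD3, which makes linolenic acid in the endoplasmic reticulum, had 144 to 173 FPKM in replicates 3 and 4 and 91.6 to 121 FPKM in replicates 1 and 2. TPL, the co-repressor recruited through NINJA to JAZ proteins, had 55.5 to 68.3 FPKM in replicates 3 and 4 and 34.7 to 51.7 FPKM in replicates 1 and 2. MFP2, of peroxisomal side-chain shortening, was higher as well, while JAZ12, OPR2 and CYP94B1, an enzyme that hydroxylates the active hormone, were lower. Replicates 3 and 4 also differed in the markers of green tissue, with a median log2 difference of -0.65 over the 15 of 20 that passed the filter, and RBCS1B, RBCS2B and LHCB2.2 at 0 in 13, 10 and 9 of the 16 libraries. The part of green tissue in these differences was not tested.

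A further pattern ran from library to library and took in JAZ1, AOS and MYC2, each in part. The 10 touch and rapid wounding genes, which plants switch on within minutes of handling, summed to 133, 126, 300 and 155 FPKM in double, 123, 114, 357 and 202 FPKM in mctp4-1, 247, 99.7, 220 and 157 FPKM in mctp3-2 and 220, 104, 202 and 109 FPKM in WT. Replicate 3 was high in all genotypes, and replicate 1 was high in mctp3-2 and WT but low in double and mctp4-1. MYC2 did not share the high replicate 1 of WT, with 32.9 FPKM there and 32.8 FPKM in replicate 2.

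JAZ1 followed that division in part. In replicate 3 of mctp3-2 it had 47.7 FPKM, below replicate 4 at 48.9 FPKM. In replicate 3 of WT it had 43.0 FPKM, below replicate 2 at 44.7 FPKM. The highest JAZ1 library in each genotype (replicate 3 in double and mctp4-1, replicate 1 in mctp3-2 and WT) was also the highest for TCH2, a calmodulin-like touch gene, and for LOX4, within its low range. Every other listed touch gene had its highest library elsewhere in mctp3-2, in WT or in both. TCH4 and RRTF1, for example, were highest in replicate 3 of every genotype. ZAT10, a zinc finger repressor induced by many stresses, had 18.5, 12.3, 67.2 and 22.03 FPKM in double, 13.1, 14.5, 90.2 and 36.4 FPKM in mctp4-1, 51.0, 8.67, 55.6 and 19.4 FPKM in mctp3-2 and 53.5, 6.44, 37.4 and 8.48 FPKM in WT. ORA47, an AP2 factor that activates genes of jasmonate synthesis, was picked out after its values were seen. In replicate 3, its highest library in each genotype, ORA47 had 3.42 FPKM in double, 10.3 FPKM in mctp4-1, 7.83 FPKM in mctp3-2 and 3.18 FPKM in WT. It had 0.194 to 1.86 FPKM in the other 12. Of the 9 touch genes tested by limma (10 listed; RRTF1, under the filter, was at 0 in 3 libraries), 0 were called against WT, with or without the replicate block, and 1 (TCH3, 0.52 ± 0.24), 0 and 0 had an unadjusted p under 0.05 in double, mctp4-1 and mctp3-2. Their median changes were 0.22 in double, 0.19 in mctp4-1 and 0.10 in mctp3-2 on the log2 scale. The part of a touch response in the levels of MYC2, JAZ1 and AOS was not tested.

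To describe this shared variation, log2(FPKM + 1) of each gene was centred within replicates 1 and 2 and within replicates 3 and 4, and genes were compared with the mean standardized profile of the 6 jasmonate genes over the 16 libraries. MYC2 (Pearson r = 0.84), AOS (r = 0.79) and JAZ1 (r = 0.77) carried the profile, of which each is itself a part, OPR3 (r = 0.41) and JAZ10 (r = 0.38) did so less, and AOC2 did not (r = -0.13). The 5 genes outside the 10 with the most similar profile were NUDT4 (r = 0.89), AT4G27654 (r = 0.89), CBF2 (r = 0.88), AT1G64185 (r = 0.88) and ERF13 (r = 0.88). CBF2 is an AP2 factor of the cold response and ERF13 an ethylene response factor. NUDT4 had 29.4 FPKM in replicate 3 and 8.42 to 10.4 FPKM in the other libraries of double, and 38.9 FPKM in replicate 3 and 7.44 to 15.9 FPKM in the others of mctp4-1. For replicates 1 to 4 it had 25.5, 6.27, 23.1 and 10.2 FPKM in mctp3-2. In WT it had 19.5, 8.06, 16.3 and 4.43 FPKM, so replicate 1 was its highest library in mctp3-2 and WT. Of the touch genes tested, TCH2 (r = 0.84) and ZAT10 (r = 0.83) were closest and TCH3 (r = 0.02) farthest. These values describe 16 libraries whose shared growth and sequencing the labels do not give, and they carry no p.

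**Figure D4:**
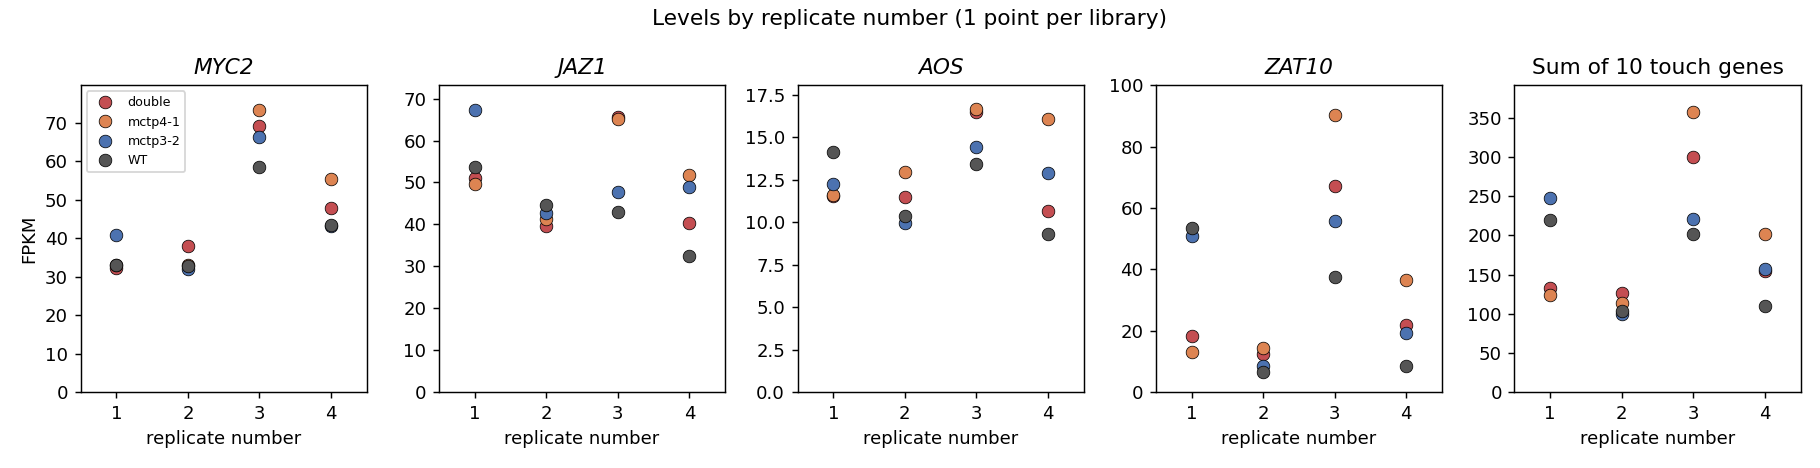
Levels in FPKM (y axis, linear, from 0) of MYC2, JAZ1, AOS and ZAT10 and the sum of the 10 touch genes, by replicate number (x axis), 1 point per library coloured by genotype. MYC2 is higher in replicates 3 and 4 of every genotype, and JAZ1, ZAT10 and the touch sum are high in replicate 1 of mctp3-2 and WT and in replicate 3 of double and mctp4-1. ZAT10 and the touch sum, but not JAZ1, are high in replicate 3 of mctp3-2 and WT as well.

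The rest of the pathway was read from 57 further genes, of which 47 passed the filter. None was called in double, mctp4-1 or mctp3-2 against WT, in double against either single mutant or for the interaction, by limma with or without the replicate block. The share of all tested genes at an unadjusted limma p under 0.05 was 3.82%, 1.26% and 1.85% for double, mctp4-1 and mctp3-2 against WT. It was 2.6% and 2.92% for double against mctp4-1 and against mctp3-2, and 1.93% for the interaction. Close to that background, 1 of 47 (2.13%) was found in mctp4-1 against WT, 1 (2.13%) in double against mctp3-2, and 0 in the other comparisons. The first, named after its value was seen, is CYP94B3, which hydroxylates jasmonoyl-isoleucine and so turns it over: it had 2.85, 2.55, 3.89 and 2.55 FPKM in mctp4-1 and 1.69, 2.104, 1.71 and 1.89 FPKM in WT. Every mctp4-1 library was above every WT library, as 1.03% of all tested genes were separated in either direction. Its log2 change was 0.47 ± 0.17 with an unadjusted limma p of 0.0131, and an adjusted p of 1.00. The second, also named after its value was seen, is FAD7, a plastid desaturase, at -0.23 ± 0.10 on the log2 scale in double against mctp3-2, with an unadjusted limma p of 0.0409 and an adjusted p of 1.00.

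By role, the most abundant genes were FAD3 at 132 FPKM among lipases, desaturases and other lipoxygenases, OPR1 at 386 FPKM in later synthesis, JAR1, which conjugates jasmonate to isoleucine, at 52.5 FPKM, TPL at 52.8 FPKM among receptor and co-repressors, JAZ12 at 68.6 FPKM among the other JAZ genes, JAM3, a repressing relative of MYC2, at 22.8 FPKM and JAV1 at 10.3 FPKM among response genes (means of 16 libraries). Log2 changes lay above 0 for 33 of 47 genes in double, 34 in mctp4-1 and 36 in mctp3-2 against WT, with medians of 0.05, 0.05 and 0.07, beside medians of 0.03, 0.03 and 0.05 over all genes tested. The share of all tested genes above 0 is not given here, and their medians lie above 0 too, so these counts say little by themselves. Of the 3 response genes tested, 0, 1 and 0 lay above 0 in double, mctp4-1 and mctp3-2, with medians of -0.09, -0.03 and -0.28. Of 7 response genes, CORI3, PDF1.2 and THI2.1 were listed at 0 in all libraries. VSP1, a vegetative storage protein gene induced by jasmonate in shoots, had 2.77 to 8.57 FPKM in double, 2.51 to 13.9 FPKM in mctp4-1, 1.33 to 8.85 FPKM in mctp3-2 and 3.42 to 13.6 FPKM in WT, with all genotypes overlapping.

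**Figure D5:**
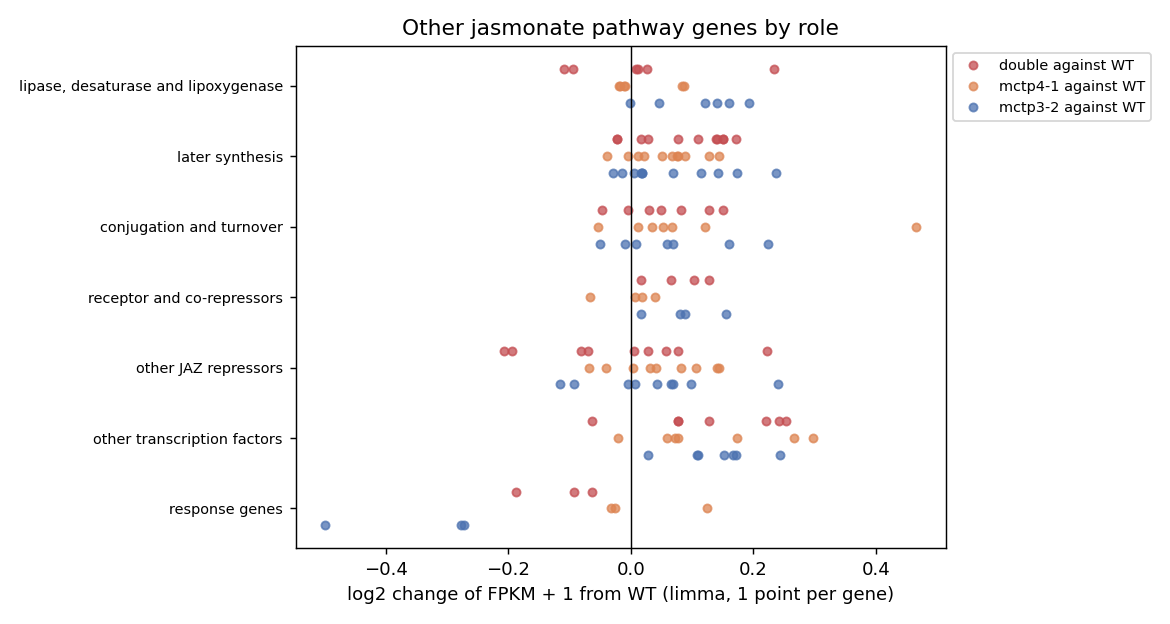
Log2 change of FPKM + 1 from WT (x axis) for the 47 other jasmonate pathway genes that passed the filter, grouped by role (y axis), with 1 point per gene for each of double, mctp4-1 and mctp3-2. No gene was called; the point farthest right is CYP94B3 in mctp4-1 at 0.47 and the point farthest left is VSP1 in mctp3-2 at -0.50.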

How the data were processed

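Roots of 4 genotypes, 4 libraries each, were measured by RNA-seq with a stranded kit, per the labels' protocols. The authors deposited FPKM for 33560 genes; HISAT2, Cufflinks and the TAIR10 build are named in the submitters' processing notes, with versions and the use of strand in counting not given in the sources used here. FPKM already divides out library size and gene length, and read numbers are not analysed here: low values fell on steps of whole fragments for 27.3 to 47.5% of genes below 0.6 FPKM (tolerance 0.05 log2), too few to recover reads, with relative depths of 0.883 to 1.65. Values below 1e-06 were taken as 0. Genes with at least 1 FPKM in at least 4 libraries were fitted as log2(FPKM + 1), 1 mean per genotype over all 16 libraries, with limma 3.58.1 in R 4.3.3 (trend and robust moderation), Benjamini-Hochberg adjusted over 19239 genes and called under 0.05, 2-sided. A change on this scale understates that of low genes. The fit was tested on simulated data with independent errors in each library, so without the shared deviations of replicates described below. Genes under the filter were compared by an exact permutation test.

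The 10 genes, the pathway, touch, root and green tissue lists were chosen with earlier results of these data known. Of 65 pathway genes, 8 were dropped because the annotation does not give their code that name. Named by rule are the 10 genes, MCTP3 and MCTP4, called pathway genes, the most abundant gene of each role, the JAZ and MYC families and the 5 most similar genes. Other named genes, ORA47, VSP1 and single touch genes among them, fall outside this rule and were chosen with results of these data known. Same-numbered libraries of different genotypes deviated together in all 24 pairs (r = 0.203 to 0.556), so the replicate block was fitted as an alternative, but differently numbered libraries within replicates 1 and 2 or 3 and 4 did so too (0.185 to 0.524). Sequences are from RefSeq TAIR10.1, read by gene identifier from its own annotation; no coordinates were converted. The window before JAZ1 is not reported here.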

Additional observations from a re-analysis of the deposited data

Results flagged for a closer look

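Within a genotype, 1 library of 4 stood apart from the other 3 in 6 of the 35 groups looked at. The rate of about 1 in 20 by chance does not hold for groups with values at 0. The groups also share libraries, so no excess over chance is read from this count. LOX3 had its only value above 0 in replicate 1 of mctp4-1, 0.0196 FPKM, and in replicate 3 of WT, 0.0288 FPKM. Any single value above 0 is flagged in such a group. LOX4 was highest in replicate 3 of mctp4-1, 0.448 FPKM. AOS was highest in replicate 3 of double, 16.5 FPKM, a library in which the touch genes were high as well. AOC2 was highest in replicate 3 of mctp3-2, 5.39 FPKM. OPR3 was lowest in replicate 2 of mctp3-2, 22.6 FPKM.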

How the results depend on the processing

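Across 29 alternatives, 0 of the 6 jasmonate genes that passed the filter were called in any comparison. In 1026 refitted changes of these genes 56 had the other sign than in the fit as reported and 14 moved by more than the spread between libraries; the lowest adjusted p was 0.498, for AOC2 in double against mctp3-2 with the replicate block. Of the other pathway genes 0 were called, with a lowest adjusted p of 0.346. Leaving out each library in turn left both counts at 0. A filter at 5 FPKM removed AOC2 and JAZ10.

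With the replicate number as a block, where same-numbered libraries are paired, 0 jasmonate genes were called, and the counts over all genes were 104 in double against WT (30 without it), 5 in mctp4-1 against WT (5), 11 in mctp3-2 against WT (6), 60 in double against mctp4-1 (12), 53 in double against mctp3-2 (11) and 10 for the interaction (7). Over all alternatives these counts ranged from 10 to 104, 2 to 6, 3 to 11, 3 to 60, 4 to 59 and 1 to 12. The count of 10 came without replicate 3 of every genotype, an alternative chosen after seeing the data. Read depth is unknown, and genes below 1 FPKM cannot be compared with any precision.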
